A study of Rattus norvegicus with 6 samples.

Results

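Yif1b, Stx4, Dnm2, Scamp4 and Mal2 code for proteins of membrane traffic, and their expression was followed in the substantia nigra pars compacta of rats given the pesticide rotenone or its solvent. The 5 genes were chosen by their measured values, because the 3 rotenone values of each lay below its 3 solvent values in an earlier look at these same arrays. They are 5 of the 4013 genes that could be named on the array and 5 of the 122 named genes, of 2263 measured above background, with that arrangement. Their difference between the groups is therefore given as a description, without a test. All 5 had a probe above background on at least 3 of the 6 arrays, which Mal2 reached through its 3 solvent arrays alone. Dnm2 had a second probe that was above background on fewer, so that the 5 genes have 6 probes.

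Each of 6 male Sprague Dawley rats, 5 months old, carried an osmotic minipump under the skin for 28 days. In 3 rats (numbers 16, 13 and 9) it released 0.5 mg/kg per day of rotenone, which blocks complex I of the respiratory chain. In the other 3 (numbers 11, 7 and 1) it released the solvent, dimethylsulfoxide and polyethylene glycol with the surfactant Pluronic F-127, which the rotenone rats received as well. Total RNA of the laser-captured region was amplified and hybridised to 1 array per rat, so the animal is the replicate, and precision is set by having 3 arrays in a group. The comparison asks how exposure over weeks alters expression where the dopamine neurons of the midbrain lie.

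Proteins move between the compartments of a cell in vesicles. Coats bud them from the endoplasmic reticulum, the Golgi apparatus and the plasma membrane. At the plasma membrane, dynamins cut clathrin-coated vesicles free. Pairs of SNARE proteins on a vesicle and its target fuse them. Neurons depend on these steps for carrying receptors and transporters into dendrites and axons and for recycling synaptic membrane.

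The tissue label was checked against marker genes. Th, Slc6a3 and Ddc, which make and take up dopamine, were above background on all 6 arrays, at normalized log2 intensities of 12.48 to 13.09, 12.45 to 12.82 and 12.63 to 13.47. The share of probes above background ranged from 44.2% to 51.5% over the arrays. The array of rotenone rat 16 stood apart, with a mean correlation of 0.931 with the other arrays across probes, against 0.956 to 0.964 for the rest, and with the lowest median net signal, 11.7 against 13.9 to 16.6. The file headers date 5 of the arrays to the same day and that of solvent rat 7 to another, so that leaving out solvent rat 7 leaves arrays of the same header date. Whether that date is of the scan or of the file is not stated. Across the 16708 probes tested, limma's moderated test (Benjamini-Hochberg) called 0 at an adjusted p of 0.05, or 0%. The smallest adjusted p was 0.895, and 825 probes had an unadjusted p below 0.05.

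At its only or brighter probe, each of the 5 genes had lower intensity in every rotenone rat than in any solvent rat. In mean they were lower by 0.55 to 0.89 on the normalized log2 scale. The 0.55 is that of Mal2, which was above background in no rotenone rat, and Stx4 was not above background in rotenone rat 16. At the second Dnm2 probe the groups overlapped. Over all probes tested, 4.89% had the 3 rotenone values below the 3 solvent values. Since the genes were picked for this arrangement, their count is not set against that share. The offset used in background correction draws differences of dim probes towards 0, so the authors' scaled intensities, which are linear and have an array median near 1, are given beside the log2 values. In RNA of a captured region, fewer cells of a type and less RNA per cell cannot be told apart.

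Yif1b codes for a membrane protein that cycles between the endoplasmic reticulum and the Golgi apparatus and takes part in the sorting of a serotonin receptor to dendrites. Its probe GE1270408 gave normalized log2 values of 8.98, 8.79 and 8.66 in solvent rats 11, 7 and 1 and of 7.63, 8.11 and 8.03 in rotenone rats 16, 13 and 9. The lowest solvent value lay 0.54 above the highest rotenone value, the widest gap of the 5 genes. The solvent mean was 8.81 ± 0.16 (SD, n = 3) and the rotenone mean 7.92 ± 0.26, and they differed by -0.89 ± 0.18 (SE). On the authors' scale the solvent rats read 30.2, 26.0 and 22.9 and the rotenone rats 9.40, 15.3 and 14.3. Rat 16 was thus at 35.6% of the solvent mean, and rats 13 and 9 at 58.1% and 54.2%. The difference was -0.73 without rotenone rat 16, -0.99 without rat 13 and -0.94 without rat 9.

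Stx4 codes for a syntaxin, a SNARE of the plasma membrane that receives vesicles carrying the insulin-responsive glucose transporter and, in neurons, recycling endosomes at dendritic spines. Its probe GE19631 gave 7.02, 7.35 and 6.56 in solvent rats 11, 7 and 1, a wide spread, and 6.17, 6.38 and 6.34 in rotenone rats 16, 13 and 9. Solvent rat 1 lay 0.19 above the highest rotenone rat, and the spot was near background in rotenone rat 16. The means were 6.98 ± 0.39 (SD, n = 3) and 6.30 ± 0.11, with a difference of -0.68 ± 0.21 (SE). On the authors' scale the solvent rats read 5.22, 7.31 and 2.65 and the rotenone rats 1.08, 1.95 and 1.72, a ratio of means of 0.313. The difference rested more on the solvent than on the rotenone rats. It was -0.49 without solvent rat 7, whose header date differs, and -0.88 without solvent rat 1. It stayed between -0.72 and -0.63 with any rotenone rat left out.

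Dnm2 codes for the dynamin found in most cell types, a GTPase that cuts clathrin-coated vesicles from the plasma membrane. The brighter of its probes, GE1304879, read 7.88, 8.29 and 8.20 in solvent rats 11, 7 and 1 and 7.77, 7.45 and 7.41 in rotenone rats 16, 13 and 9. Rotenone rat 16 came within 0.11 of solvent rat 11, the narrowest gap of the 5 genes. The means were 8.12 ± 0.21 (SD, n = 3) and 7.54 ± 0.20, with a difference of -0.58 ± 0.18 (SE). The authors' scaled values were 12.6, 17.3 and 15.7 against 10.9, 8.46 and 7.97, a ratio of means of 0.598. Without rotenone rat 16 the difference was larger, at -0.69, and without rats 13 or 9 it was -0.53 or -0.51. Without solvent rat 7 it was -0.49.

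The second Dnm2 probe, GE20243, did not show the pattern. It was above background in solvent rat 1 alone, at 6.48, and read 5.82 and 5.92 in solvent rats 11 and 7 against 5.98, 6.05 and 5.91 in rotenone rats 16, 13 and 9. The groups overlapped by 0.23, and the difference was -0.09. The sign depended on solvent rat 1, without which the difference was 0.11. Both probes carry the accession of the same Dnm2 transcript, so the description of Dnm2 rests on the brighter probe.

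Scamp4 codes for a secretory carrier membrane protein, a family of vesicle proteins of the recycling pathway that pass the membrane several times. Its probe GE13552 gave 7.34, 7.68 and 7.58 in solvent rats 11, 7 and 1 and 6.96 in each of rotenone rats 16, 13 and 9. The gap between the groups was 0.37. The means were 7.53 ± 0.18 (SD, n = 3) and 6.96 ± 0.0025, with a difference of -0.57 ± 0.16 (SE). The equality of the rotenone rats arose with normalization, since their net intensities before it were 50.8, 72.2 and 67.7, against 109, 162 and 151 with solvent. On the authors' scale they read 4.34, 4.87 and 4.86 against 7.45, 10.1 and 9.02. The difference was between -0.58 and -0.57 with any rotenone rat left out, and -0.49 without solvent rat 7.

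Mal2 codes for a small proteolipid of the MAL family that is needed for transport across polarised epithelial cells and is also found on synaptic vesicles. Its probe GE1196715 lay near background, at 6.63, 6.55 and 6.61 in solvent rats 11, 7 and 1. In rotenone rats 16, 13 and 9 it was not well above background, with readings of 6.21, 5.97 and 5.95. The solvent rats agreed within an SD of 0.04 around 6.60, and the rotenone readings had a mean of 6.04 ± 0.15 (SD, n = 3). Because no rotenone rat was above background, the difference of -0.55 ± 0.16 (SE) gives no exact fold. With a floor for the rotenone arrays, Mal2 was about 1.43-fold higher with solvent. This value sets the solvent mean against a rotenone mean of 6.08, for which each array took the higher of its lowest probe above background and the reading itself. The lowest such probe is not a detection limit, so the fold is no strict bound. The difference was -0.67 without rotenone rat 16 and -0.51 without rat 13 or without rat 9.

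**Figure D1:**
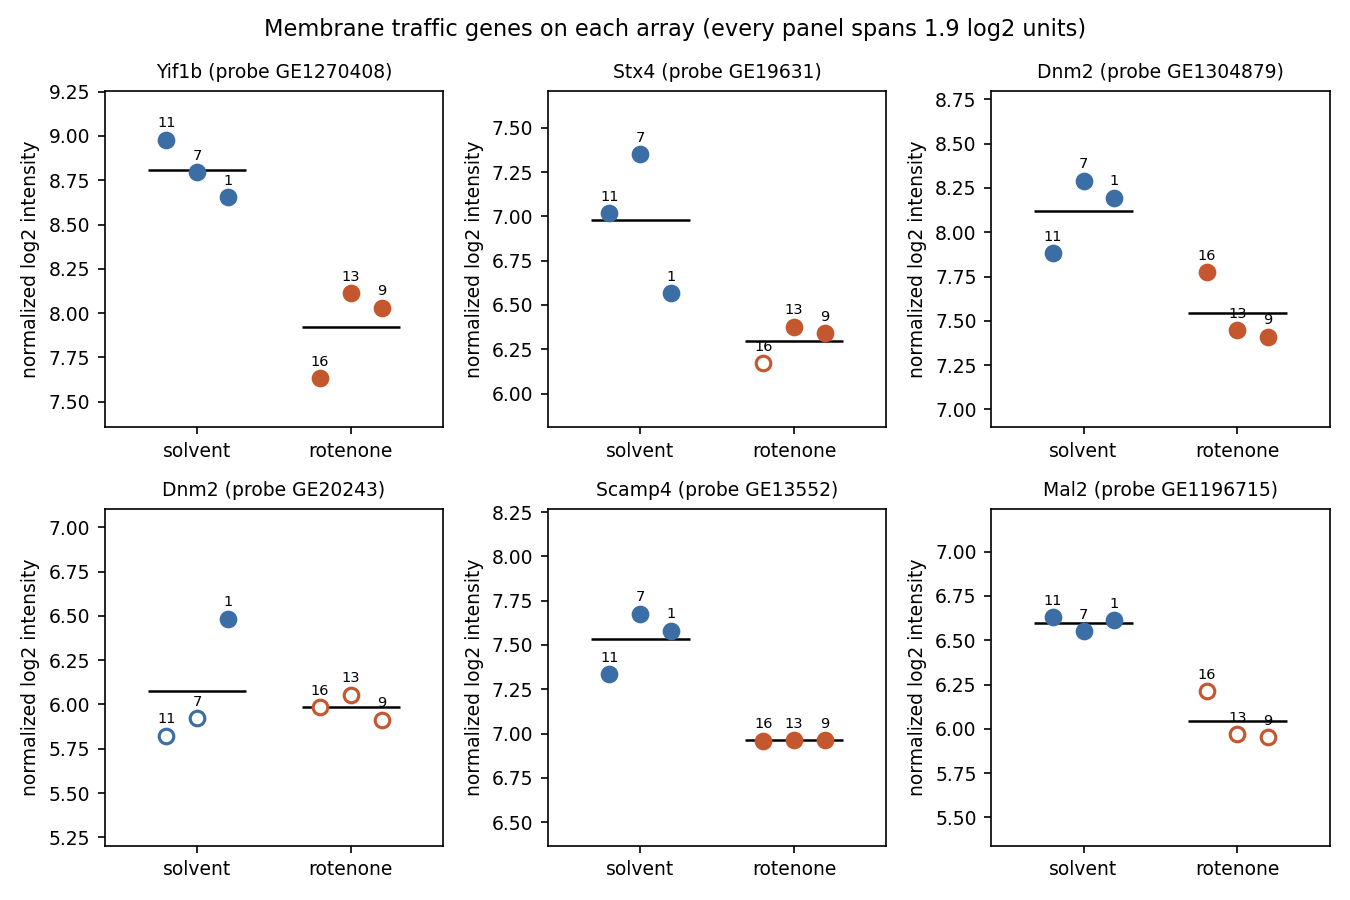
Normalized log2 intensity of the 6 probes on each array, with solvent rats in blue and rotenone rats in orange, the rat number above each point, a line at the group mean and open circles where the spot was not above background. For 5 probes all rotenone points lie below all solvent points, by 0.11 (Dnm2) to 0.54 (Yif1b), while the groups overlap at the second Dnm2 probe, which is above background in solvent rat 1 alone.

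In the scanner files, 30.1% to 36.8% of the probe spots of an array carry the mark I, C or M, with low signal not counted. Of the 30 spots of the 5 leading probes 22 carry I, the mark for an irregular spot. In an earlier account of these data the mark I covered nearly all bright spots. All 6 spots of Yif1b and all 6 of Dnm2 were marked. For the other genes the marks were more frequent with solvent, where the spots were brighter. They covered 3 solvent and 0 rotenone spots for Stx4, 3 and 2 for Scamp4, and 2 and 0 for Mal2. Marked spots were kept, since none of the 5 genes could be compared without them. The part of spot shape in the differences was not tested.

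Rotenone rat 16, whose array stood apart, was the lowest rotenone rat for Yif1b and the highest for Dnm2. Its Stx4 and Mal2 spots were not above background. Without it the differences were -0.73 for Yif1b, -0.63 for Stx4, -0.69 for Dnm2, -0.58 for Scamp4 and -0.67 for Mal2. In these values the groups did not overlap, which the choice of the genes favours. The plot of differences by setting gives the values for each rat left out and for the other processings, except the removal of marked spots.

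**Figure D2:**
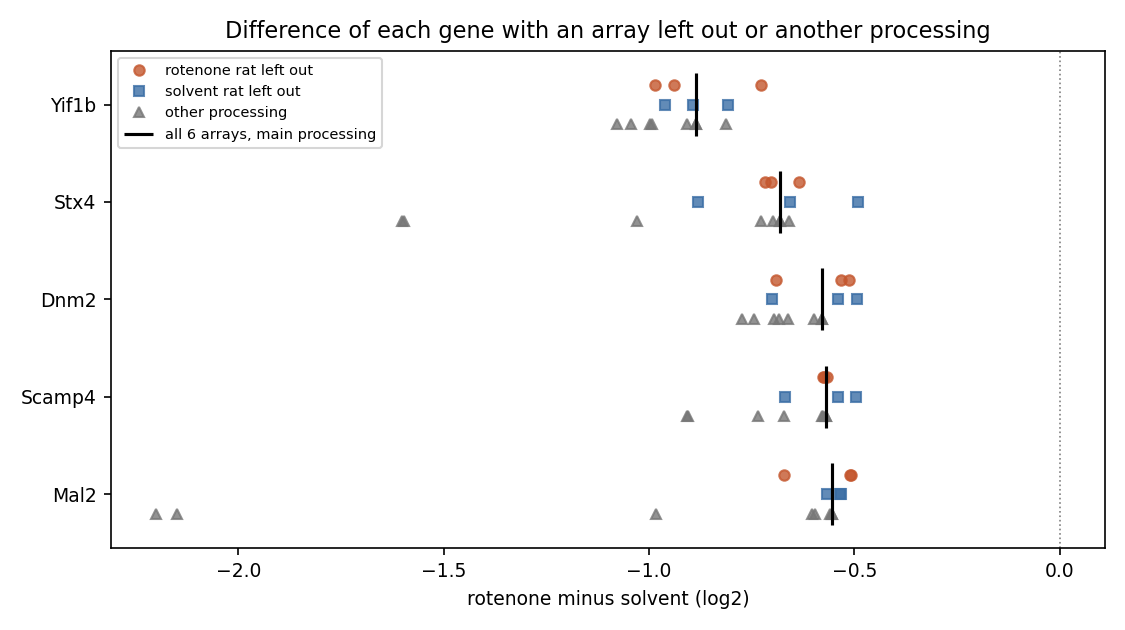
Difference between rotenone and solvent means (log2, horizontal axis) of the 5 genes, with all 6 arrays (black line), with a rotenone rat left out (orange circles), with a solvent rat left out (blue squares) and under other processings (grey triangles). Leaving out a rat moved Stx4 most, from -0.88 to -0.49. Background subtraction and the authors' scaled intensity moved the dim genes Stx4 and Mal2 most. The rotenone readings of Mal2 were not above background, and its exact difference is not read.

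The choice of genes favours a small spread within a group but did not use the order of the rats there. In that order the 5 genes did not rank the rats alike. Yif1b was highest in solvent rat 11, where Dnm2 and Scamp4 were lowest. Stx4, Dnm2 and Scamp4 were highest in solvent rat 7, where Mal2 was lowest. Among the rotenone rats, Yif1b was highest in rat 13 and lowest in rat 16, and Dnm2 was highest in rat 16 and lowest in rat 9. The order of the Mal2 readings in these rats, none above background, is not read. Over the 6 arrays the 10 pairs of genes had a Pearson r from 0.642 (Yif1b and Dnm2) to 0.935 (Dnm2 and Scamp4), in which the shared difference between the groups is contained. With each group's mean taken out, 4 pairs had an r above 0 and 6 below 0, from -0.866 for Yif1b and Dnm2 to 0.720 for Dnm2 and Scamp4. These values describe 6 arrays that also share their normalization, and those of pairs with Mal2 or Stx4 include readings that were not above background.

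**Figure D3:**
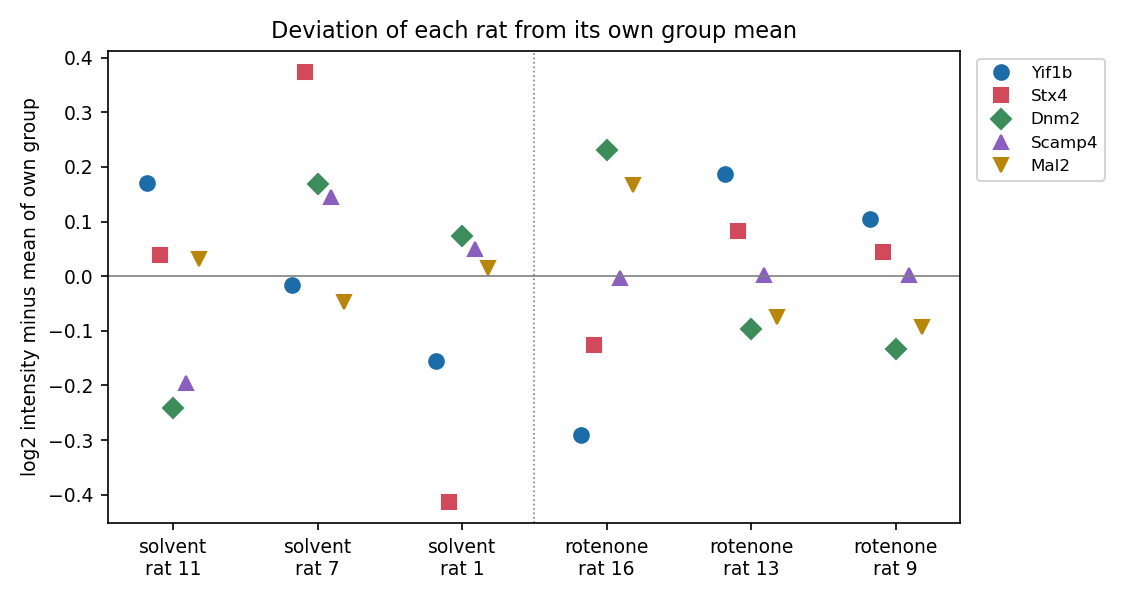
Normalized log2 intensity of each of the 5 genes minus the mean of the rat's own group (vertical axis), for the 3 solvent and 3 rotenone rats (horizontal axis). The genes spread to both sides of 0 in each rat: in rotenone rat 16, Dnm2 lies above 0 while Yif1b lies below, and in solvent rat 1 Stx4 lies lowest.

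The promoters of the 4 genes present in RefSeq's rat promoter table are shown because these genes were grouped for their lower values. Each covers 250 bases before to 50 after the gene's start in the assembly GRCr8, read 5′ to 3′ on the gene's strand. Capitals mark the GC box, GGGCGG or its reverse complement, and the CCAAT box on either strand. Yif1b lies at chr1:93667077-93667376 on the plus strand, Stx4 at chr1:191881817-191882116 (plus), Dnm2 at chr8:28254339-28254638 (plus) and Scamp4 at chr7:9764565-9764864 (minus).
Yif1b: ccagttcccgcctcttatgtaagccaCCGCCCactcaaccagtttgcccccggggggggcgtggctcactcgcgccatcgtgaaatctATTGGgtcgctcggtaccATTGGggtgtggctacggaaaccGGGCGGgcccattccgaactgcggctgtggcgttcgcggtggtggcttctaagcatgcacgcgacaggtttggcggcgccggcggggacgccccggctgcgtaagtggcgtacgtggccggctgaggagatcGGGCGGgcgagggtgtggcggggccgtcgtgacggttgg
Stx4: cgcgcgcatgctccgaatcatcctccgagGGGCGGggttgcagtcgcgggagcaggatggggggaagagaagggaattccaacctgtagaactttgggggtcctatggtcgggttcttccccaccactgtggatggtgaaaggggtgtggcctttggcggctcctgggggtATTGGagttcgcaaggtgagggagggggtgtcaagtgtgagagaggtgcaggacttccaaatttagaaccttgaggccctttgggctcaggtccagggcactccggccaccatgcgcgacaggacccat
Dnm2: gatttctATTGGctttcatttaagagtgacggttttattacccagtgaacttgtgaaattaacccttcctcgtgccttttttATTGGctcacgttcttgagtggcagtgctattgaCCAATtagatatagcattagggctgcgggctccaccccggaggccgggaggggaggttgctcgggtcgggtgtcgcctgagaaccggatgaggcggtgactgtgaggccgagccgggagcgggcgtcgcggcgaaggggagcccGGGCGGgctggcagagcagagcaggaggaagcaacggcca
Scamp4: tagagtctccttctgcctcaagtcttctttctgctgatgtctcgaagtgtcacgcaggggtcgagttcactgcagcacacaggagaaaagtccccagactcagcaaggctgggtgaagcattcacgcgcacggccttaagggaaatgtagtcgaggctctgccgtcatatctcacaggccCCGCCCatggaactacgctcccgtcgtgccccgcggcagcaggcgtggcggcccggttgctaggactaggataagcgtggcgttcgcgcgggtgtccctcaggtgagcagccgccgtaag

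All 4 windows held a GC box, which 41.8% of the 21851 rat protein-coding promoters in the table hold, with 3 matches in Yif1b and 1 in each of the others. A CCAAT box was found in Yif1b (2 matches), Stx4 (1) and Dnm2 (3) but not in Scamp4, and in 38% of all promoters. The core of the cyclic AMP element, TGACG on either strand, occurred in Yif1b, Dnm2 and Scamp4 and in 23.5% of all promoters. None of the 4 windows held the letters of the E-box CACGTG (7.02% of all promoters), the ETS core CCGGAAG (10.7%) or the TATA box TATAAA (13%). Their GC content was 68.0%, 60.7%, 58.0% and 60.7% for Yif1b, Stx4, Dnm2 and Scamp4, where the median promoter had 55.0% (quartiles 46.3% and 63.3%). They held 36, 14, 21 and 24 CpG sites against a median of 11 (quartiles 3 and 23). Stx4 and Dnm2 thus lay between the quartiles in both measures, and Scamp4 in GC content. A match is a description of the letters and shows no binding.

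The nearest relatives of the 5 genes were not uniformly lower. Of 35 relatives listed, 16 had a named probe and 9 were measured above background. Yif1a, the partner gene of Yif1b in the same family, read 9.36, 9.69 and 9.55 in solvent rats 11, 7 and 1 and 9.14, 9.02 and 9.42 in rotenone rats 16, 13 and 9. Its groups overlapped by 0.06, and its difference was -0.34 ± 0.18 (SE). Yipf1, a Golgi protein of the wider family, differed by -0.21 and, without rotenone rat 16, by 0.05.

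Among the syntaxins, Stx5, the SNARE of traffic into the Golgi, differed by 0.10, which turned to -0.04 with array medians equalised. Stx1a, which serves transmitter release, differed by 0.08, and by -0.23 without rotenone rat 16 and -0.01 with equalised medians. At both syntaxins the groups overlapped. Stx2, Stx3, Stx6, Stx7 and Stx17 had named probes that were too dim for the test.

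The dynamin Dnm3 had 2 probes, with differences of -0.36 (GE1174180) and 0.05 (GE13458), the latter at -0.06 without rotenone rat 16 and -0.0052 with equalised medians. Dnm1l, a dynamin-related protein that divides mitochondria, differed by 0.06, and by -0.12 without rotenone rat 9 and -0.0058 with equalised medians. The named probe of Dnm1, the dynamin of synapses, was above background on 0 arrays, although the gene is known to be strongly expressed in brain.

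Mal, the myelin relative of Mal2, read 10.23, 10.12 and 10.33 in solvent rats 11, 7 and 1 and 8.92, 10.17 and 9.59 in rotenone rats 16, 13 and 9. It lay just outside the rule, since rotenone rat 13 was above solvent rat 7 by 0.06. Its difference of -0.66 ± 0.28 (SE) fell to -0.34 without rotenone rat 16. Pllp, another myelin protein of this family, differed by -0.04, and by 0.12 without that rat. Scamp5 was too dim for the test.

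The rest of the pathway was described from 6 lists by role, with 342 genes in all, of which 127 could be named on the array and 91 were tested. None of the 91 passed an adjusted p of 0.05 in limma. An unadjusted p below 0.05 was found for 3 of the 91, all lower, and for 825 of all 16708 probes. The 3 rotenone values lay below the 3 solvent values for 6 of the 91 genes (6.59%), against 4.89% of all probes and 5.39% of all named genes. They lay above them for 2 genes, against 5.08% of all probes. All 2263 named genes had a median difference of -0.02, with 1237 lower and 1026 higher in mean. The median difference of the 91 was -0.10, with 59 genes lower and 32 higher in mean. The median lay at -0.21 in rotenone rat 16 and at -0.04 and -0.05 in rats 13 and 9, each against the solvent mean. Over the list genes tested with a rat left out, the median was -0.04 without rotenone rat 16, -0.05 without solvent rat 7 and -0.16 without rotenone rat 13.

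**Figure D4:**
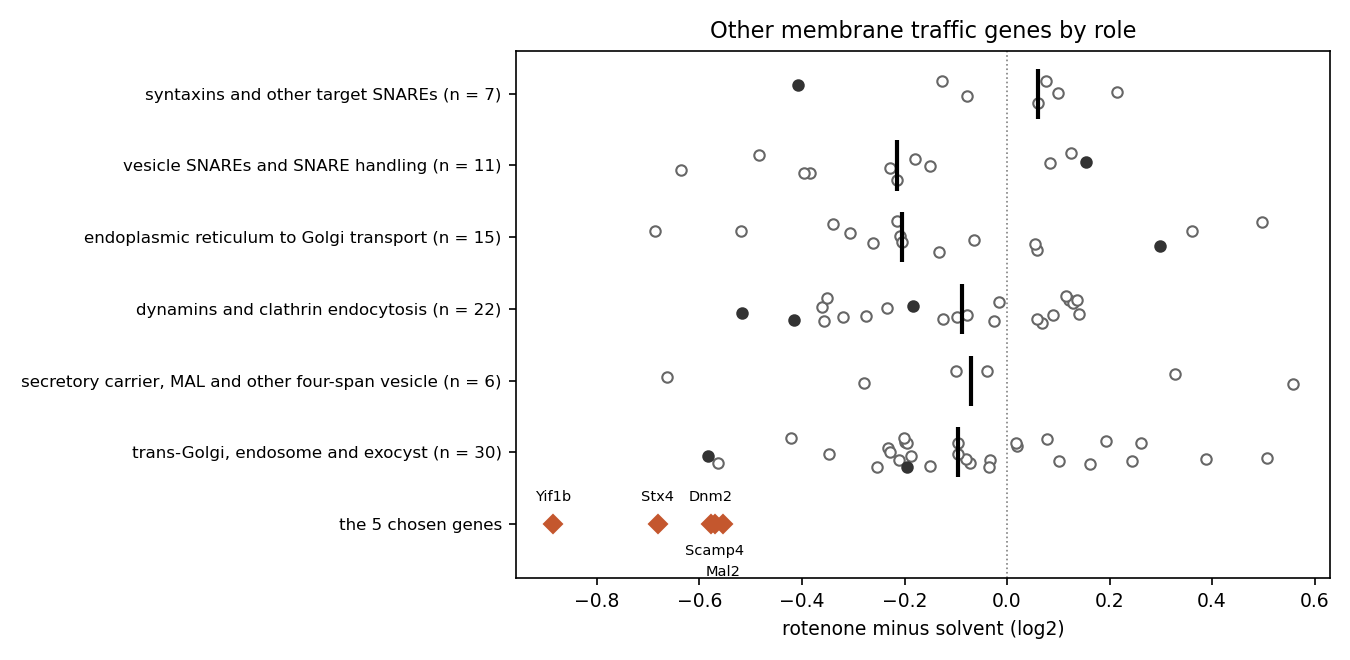
Difference between rotenone and solvent means (log2, horizontal axis) of the 91 other membrane traffic genes in 6 lists by role, with filled circles where the groups do not overlap, a black bar at the list median and, in the lowest row, the 5 chosen genes in orange. The list medians lie between -0.21 and 0.06. The 5 genes were chosen for their low rotenone values and the list genes by role, so their positions are not compared.

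By role, the vesicle SNAREs with the proteins that handle SNAREs had a median of -0.21 (8 of 11 lower in mean), and transport from the endoplasmic reticulum to the Golgi also -0.21 (10 of 15). Dynamins and clathrin endocytosis had a median of -0.09 (14 of 22), secretory carrier, MAL and related vesicle proteins -0.07 (4 of 6), and trans-Golgi, endosome and exocyst genes -0.10 (20 of 30). Syntaxins and other target SNAREs had 0.06, with 3 of 7 lower, a median that turned to -0.04 with equalised medians. Without rotenone rat 16 the 6 medians lay between -0.08 and -0.02.

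The 6 list genes with the same arrangement as the chosen genes were Flot1, Ap2b1, Flot2, Bnip1, Exoc7 and Rabep1. Flot1 and Flot2 code for flotillins, scaffold proteins of membrane microdomains. Flot1 read 9.75, 9.51 and 9.65 in solvent rats 11, 7 and 1 and 9.21, 9.23 and 9.23 in rotenone rats 16, 13 and 9, a difference of -0.41 ± 0.16 (SE, adjusted p 0.895 in limma). Flot2 differed by -0.18. Ap2b1, a subunit of the adaptor that links clathrin to cargo at the plasma membrane, differed by -0.52 ± 0.20, and by -0.30 without rotenone rat 16. Exoc7, of the exocyst that tethers vesicles to the plasma membrane, differed by -0.58 ± 0.26 and by -0.32 without that rat. The SNARE gene Bnip1 differed by -0.41 and Rabep1, an effector of early endosomes, by -0.20. Bnip1 and Exoc7 lay just inside the rule, each with a gap of 0.04, and Mal and Yif1a just outside it.

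Genes with the opposite arrangement were Rab1a and Stxbp3. Rab1a, a GTPase of transport from the endoplasmic reticulum to the Golgi, the same step as Yif1b, read 11.33, 11.30 and 11.15 in solvent rats 11, 7 and 1 and 11.49, 11.62 and 11.57 in rotenone rats 16, 13 and 9. Its difference was 0.30 ± 0.15 (SE), and 0.34 without rotenone rat 16. Stxbp3, which binds Stx4 at the plasma membrane, differed by 0.15. Of the genes with the lowest unadjusted p in their lists, the SNARE Ykt6 differed by -0.64 ± 0.29, Nsf, the ATPase that takes SNARE complexes apart, by -0.38, Myadm by 0.56 and Vps54, of a tethering complex of the Golgi, by 0.51. In each of these 4 the groups overlapped, and the adjusted p was 0.895 in limma.

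For each chosen gene the 2 named genes with the most similar values over the 6 arrays were taken among 2258, by Pearson r. Yif1b was nearest to Abcb9 (r = 0.979), a peptide transporter of lysosomes, and Retsat (0.968), an enzyme of retinol metabolism. Stx4 was nearest to Cnksr2 (0.982) and Map2k5 (0.978), Dnm2 to Gnpat (0.963) and Deaf1 (0.958), and Scamp4 to Abca2 (0.984), a lipid transporter, and Ndrg2 (0.956). Mal2 was nearest to the coagulation factor gene F10 (0.980) and to Slc4a1 (0.945). Between 9 and 36 genes exceeded an r of 0.9 with a chosen gene. With 6 arrays such values occur widely, and they contain the difference between the groups and the shared normalization. F10 and Cnksr2 were each above background on 3 of the 6 arrays. The values for Mal2 and Stx4 also include readings of their own that were not above background.

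Markers of cell types moved with the groups in part. Of 16 general neuron markers, the 8 measured were all lower in mean with rotenone, and 2 of them without overlap. Of all 2263 named genes tested, 1237 were lower in mean and 5.39% lower without overlap. The summed linear level of the 8 neuron markers was 6712 to 7745 with solvent and 3926 to 6380 with rotenone, without overlap. Their median lay at -0.71 in rotenone rat 16 and at -0.12 in rats 13 and 9, each against the solvent mean. The summed level of 8 of 13 astrocyte markers was 11174 to 12509 with solvent and 12656 to 14357 with rotenone, also without overlap. Of these 8, 5 were higher and 3 lower in mean, and their median lay at -0.16 in rotenone rat 16 and at 0.34 and 0.16 in rats 13 and 9. For 11 of 15 markers of dopamine neurons it was 30208 to 36687 and 27567 to 37545, and for 9 of 15 of oligodendrocytes 5053 to 7295 and 4648 to 5896. For GABA neurons (7 of 7 markers) it was 3600 to 4319 and 4079 to 4936, for microglia (5 of 13 markers) 1992 to 2322 and 1891 to 2194, and for endothelium and pericytes (7 of 13 markers) 1414 to 1560 and 1477 to 2197. The 4 measured of 12 markers of ependyma, choroid plexus and meninges summed to 1157 to 2238 and 1391 to 2574. Lower in mean were 7 of the 11 markers of dopamine neurons, 7 of 9 of oligodendrocytes and 4 of 5 of microglia. The same held for 4 of 7 of GABA neurons, 2 of 7 of endothelium and pericytes and 0 of 4 of ependyma, choroid plexus and meninges. Lower without overlap were also 2 of the 11 markers of dopamine neurons and 1 of the 7 of GABA neurons. Higher without overlap were 1 of the 8 of astrocytes and 1 of the 4 of ependyma, choroid plexus and meninges, against 5.08% of all probes. In the remaining lists no marker separated the groups. None of these markers passed the test. Named probes of Snap25 and Thy1, of Aqp4, Slc1a2 and Ntsr2, and of Kcnj6, Cx3cr1 and Kdr were above background on no array, as were those of Ttr, Foxj1, Kcnj13, Clic6, Lum and Slc6a13. The part of these shifts in the lower values of Yif1b, Stx4, Dnm2, Scamp4 and Mal2 was not tested.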

How the data were processed

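Expression was measured by 1-colour array in 6 rats, 3 per group, taken from the labels. Per the file headers, the deposited scanner files give linear intensities of each spot and its background, their difference, and that difference scaled by the authors to an array median near 1. The scanner software was not stated. The deposited value table repeats the scaled intensity (100% of 33849 probe values equal within 1e-06 in 5 columns, and 0.898% for solvent rat 7, so it served only as a check). Its column medians lay between 0.994 and 1.00. Probes were named by RefSeq accession through a GRCr8 gene table: 4675 of 33849 for 4013 genes. Spots were corrected with normexp (offset 50) on spot mean and background median, control spots left out, quantile-normalized as log2 and tested with limma 3.58.1 in R 4.3.3, two-sided, where 3 or more of the 6 arrays were above background (no scanner mark for low or masked signal). An exact permutation test of 3 against 3 cannot go below 0.1. Spots marked irregular were kept. The fit was tested on simulated data. Named genes are the 5, their relatives, the 2 list genes of lowest p, those next to the rule's threshold and the 2 nearest in pattern; Flot2, Rabep1 and Stxbp3 were added after their values were seen, and 1 gene that the rule names is not reported here. Members, lists and tests were chosen with earlier results of these data known.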

Additional observations from a re-analysis of the deposited data

How the results depend on the processing

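Of 15 alternatives, 14 gave a difference for the 5 chosen genes, and in each of these 14 all 5 were lower with rotenone without overlap, an arrangement for which they were chosen. Some of these values lay outside the filter of their setting: Stx4 and Mal2 where all 6 arrays had to be above background, and Mal2 with any solvent rat left out. Leaving out marked spots gave no difference, since fewer than 2 solvent values of each gene remained. The absence of overlap in the 14 is not support. A changed filter or array weights leave the values as they were, and leaving out a rat hardly moves the rest. With a rat left out, 8.25% to 11.5% of all probes tested had the same arrangement. The median difference of the 5 was -0.58. It was -1.08 with background subtracted (floor 1), -0.98 with an offset of 16 and -1.04 on the authors' scaled intensity (floor 0.1), and between -0.67 and -0.49 with a rat left out. The -0.98, and the -0.67 without rotenone rat 16, are the values of Mal2, whose rotenone readings were not above background. Background subtraction, the smaller offset and the authors' scale add less to dim signals, and the cause of the shifts was not otherwise tested. The second Dnm2 probe, below background on 5 arrays, differed by 0.39 with background subtracted. The median of the 91 traffic genes was -0.10, and -0.18 with array medians equalised, -0.21 with background subtracted and -0.16 to -0.04 with a rat left out. With a rat left out, the medians are of the list genes that passed the filter there. Of the list genes tested in each alternative, none passed in any of the 15. Equalising medians also raised the share of probes lower without overlap to 7.68%, and lowered that of higher probes to 2.88%. Among all probes the count called was 0 under 13 alternatives. It was 2, both unnamed, with marked spots left out (3910 probes tested), and 0 to 3 with a rat left out. The 3, without solvent rat 1, were higher with rotenone, and Cdon was the only one with a name. Leaving out rats or equalising medians also turned the small differences of Stx5, Stx1a, Dnm1l, Yipf1, Pllp and a Dnm3 probe. Low signal limits Mal2, Stx4 and the second Dnm2 probe, which lay near background. No paired analysis was possible because the rat numbers of the groups are not shared.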
